A study of Mus musculus with 2 samples.

Results

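Promoters poor in CpG dinucleotides are the subject here: 6238 of the 21938 protein-coding genes on the nuclear chromosomes of the mouse, in which every annotated transcription start site (TSS) of GENCODE M21 had an observed/expected CpG ratio under 0.35 in the 500 bp around it. A gene was called open in a library when a DNase-seq peak of that library's stricter deposited list lay within 1 kb of any of its TSSs. In all, 789 of the 6238 CpG-poor genes were open in at least 1 library, 186 of them in both, 576 in replicate 1 only and 27 in replicate 2 only. The other 15700 protein-coding genes serve for comparison.

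The data are 2 DNase-seq libraries of the gastrocnemius, the large calf muscle of the hindlimb, from female B6CASTF1/J mice aged 10 days, without any treatment named in the labels. B6CASTF1/J is the F1 hybrid of a C57BL/6J and a CAST/EiJ parent. The labels describe each library as 3 females, so animals appear to have been pooled, and number the libraries as biological replicates 1 and 2 of a single group; there is no second condition. The libraries stood apart in the number of peaks, 114758 in replicate 1 and 26804 in replicate 2, and every result is given for each library. With 1 group of 2 libraries no test was run, and the difference between the libraries is the only replicate error that can be shown. In bulk tissue, fewer cells of a type and less accessible DNA in each cell cannot be told apart.

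DNase I cuts DNA that is not covered by nucleosomes, so a peak of cuts marks open chromatin, and a footprint, a short protected stretch within a peak, marks a place where a bound protein may have shielded the DNA. Most housekeeping promoters lie in CpG islands, which escape DNA methylation and tend to be open in many tissues. Promoters with few CpGs are typical of tissue-restricted genes, among them the genes of the contractile apparatus of muscle, of secreted liver and gland proteins and of the chemosensory receptors, and they are often open only in the cells that use them.

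The sequences of 7 of these regions show what was found. They are read from GRCm38 (mm10), the C57BL/6J reference, so they do not show the CAST/EiJ alleles, and run 5′ to 3′ along the strand of the gene, outside annotated exons. Capitals mark bases inside a deposited footprint of a library with a peak there. The first 3 come from peaks of both libraries, chosen because each holds a match to the CTCF consensus (CTCF is the zinc finger protein of insulators and chromatin loops) inside a footprint. Aanat, the enzyme that acetylates serotonin on the way to melatonin, is on the plus strand (chr11:116592521-116592740), with the match CCCTCTGCTGG starting at -1077. Muc1, a mucin of epithelial surfaces, is on the plus strand (chr3:89228261-89228420), with the match CCACTAGAGGG starting at -746. Upk2, a uroplakin of the bladder lining, is on the minus strand (chr9:44454261-44454420), with the match CCATCTGGTGG at 655 to 665 bp downstream of the TSS. Positions count from the TSS nearest to the peak.
Aanat: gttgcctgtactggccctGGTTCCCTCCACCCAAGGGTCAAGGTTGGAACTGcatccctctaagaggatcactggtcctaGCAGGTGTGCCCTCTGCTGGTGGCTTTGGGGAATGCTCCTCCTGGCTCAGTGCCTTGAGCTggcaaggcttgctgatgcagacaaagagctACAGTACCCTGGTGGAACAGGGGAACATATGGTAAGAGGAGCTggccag
Muc1: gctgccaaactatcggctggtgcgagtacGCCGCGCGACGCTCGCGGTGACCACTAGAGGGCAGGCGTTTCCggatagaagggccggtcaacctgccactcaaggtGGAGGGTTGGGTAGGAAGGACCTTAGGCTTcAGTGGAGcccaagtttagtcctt
Upk2: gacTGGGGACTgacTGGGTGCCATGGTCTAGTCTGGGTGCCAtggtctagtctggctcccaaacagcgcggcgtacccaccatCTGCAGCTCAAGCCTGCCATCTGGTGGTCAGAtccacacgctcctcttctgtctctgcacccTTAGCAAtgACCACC

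The next 3 are the stretches before the TSS at genes with a peak over the TSS in both libraries, and the last is the promoter of Acta1, open in replicate 2 only. Gstm7, a glutathione S-transferase, is on the minus strand (chr3:107931818-107931920). Cyp4f13, a cytochrome P450 of the fatty acid hydroxylase family, is on the minus strand (chr17:32947403-32947560), with a CAGCTG E-box at -30 to -25 inside a footprint. Il6, the cytokine interleukin 6, is on the plus strand (chr5:30013211-30013320). Acta1, skeletal alpha-actin, the actin of adult sarcomeres, is on the minus strand (chr8:123894752-123895000). In Acta1 a TATAAA at -31 to -26 lies inside a footprint of replicate 2, a match to the CArG box of serum response factor at -97 to -88 lies outside every footprint, and 3 of the 6 bases of an MCAT match at -70 to -65 lie inside one.
Gstm7: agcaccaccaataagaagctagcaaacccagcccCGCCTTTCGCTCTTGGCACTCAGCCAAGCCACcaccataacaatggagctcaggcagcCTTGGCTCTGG
Cyp4f13: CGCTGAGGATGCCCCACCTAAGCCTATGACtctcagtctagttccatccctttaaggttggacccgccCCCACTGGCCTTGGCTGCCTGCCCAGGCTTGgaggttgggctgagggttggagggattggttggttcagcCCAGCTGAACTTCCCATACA
Il6: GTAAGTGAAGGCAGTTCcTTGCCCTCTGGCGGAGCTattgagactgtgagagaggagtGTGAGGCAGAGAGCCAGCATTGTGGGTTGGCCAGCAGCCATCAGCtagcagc
Acta1: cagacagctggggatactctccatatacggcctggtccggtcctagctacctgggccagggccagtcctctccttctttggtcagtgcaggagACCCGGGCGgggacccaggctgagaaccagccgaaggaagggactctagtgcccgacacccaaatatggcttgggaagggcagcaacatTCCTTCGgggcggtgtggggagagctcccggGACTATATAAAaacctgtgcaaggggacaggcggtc

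CpG-poor promoters were seldom open in this muscle. In replicate 1, 762 of the 6238 genes (12.2%) had a peak, against 66.7% of all protein-coding genes and 88.3% of the genes outside the CpG-poor class. In replicate 2 the count was 213 (3.42%), against 51.4% of all protein-coding genes and 70.5% of the genes outside the class. Open in both were 2.98% of the CpG-poor genes, where 51% of all protein-coding genes were. Open in replicate 1 only were 9.23%, where 15.7% of all were, and in replicate 2 only 0.433%, close to the 0.46% over all genes.

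Within the class the share rose with the CpG ratio. Of the 436 genes with a highest ratio under 0.05, 2.98% were open in replicate 1 and 0.688% in replicate 2. Just inside the limit, at 0.3 to 0.35, 777 genes were open in 26.8% and 9.40% of cases and in both libraries in 8.62%. Just outside it, at 0.35 to 0.4, 700 genes were open in 38.7% and 12.7% of cases and in both in 11.3%. The rise between these bins was larger in replicate 1 than between the bins before them, where the share at 0.25 to 0.3 was 20.9%. It was not larger in replicate 2, where the share at 0.25 to 0.3 was 6.02%. In replicate 1 a larger rise came beyond the limit, from 44.6% at 0.4 to 0.45 to 58.9% at 0.45 to 0.5. Genes with more TSSs offer more windows for a peak, and the median number of TSSs was 2.5 at the genes open in both and 2 in each of the other 3 groups.

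**Figure D1:**
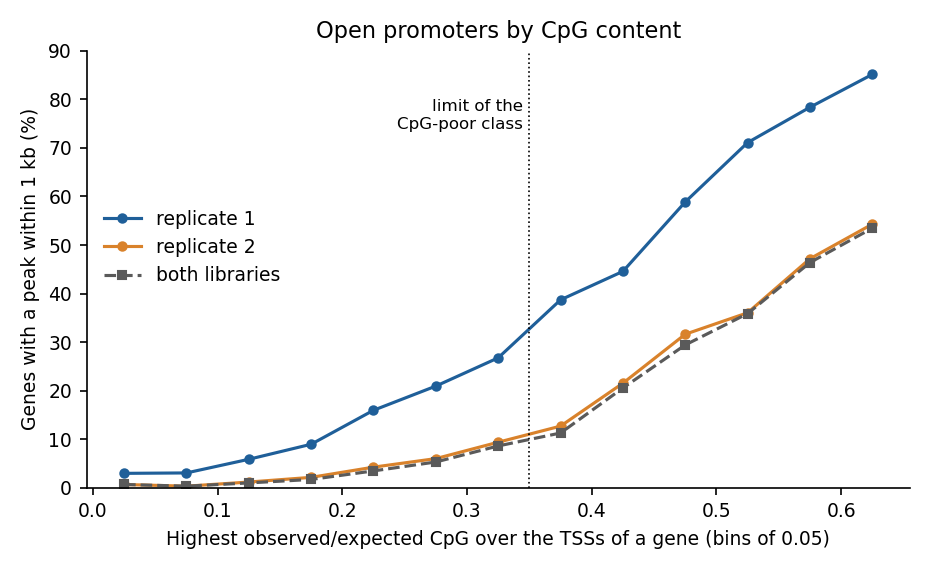
Share of protein-coding genes with a peak within 1 kb of a TSS (y axis, percent) by the highest observed/expected CpG ratio over the TSSs of the gene (x axis, bins of 0.05), for replicate 1, replicate 2 and both libraries; the dotted line marks 0.35. All 3 curves climb across the limit, from 26.8% to 38.7% in replicate 1 between the bins on either side of it.

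The number of peaks moved with these counts. When replicate 1 was limited to its 26804 tallest peaks, as many as replicate 2 has, 205 CpG-poor genes were open in replicate 1 and 213 in replicate 2, with 85 in both, 120 in replicate 1 only and 128 in replicate 2 only. These are 1.36%, 1.92% and 2.05% of the class. At an equal number of peaks the libraries thus opened about as many CpG-poor genes each, and most of those genes differed between them. The restriction itself made part of this difference: in the full lists, 186 of the 213 genes open in replicate 2 also had a peak in replicate 1. At the other protein-coding genes the same restriction left 9647 (61.4%) open in both, 1032 (6.57%) in replicate 1 only and 1424 (9.07%) in replicate 2 only.

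The deposited intervals with a false discovery rate (FDR) of at most 0.05 tell how near a gene without a peak came to having one. Of the 576 genes open in replicate 1 only, 415 (72.0%) had no such interval within 1 kb in replicate 2, 73 had a lowest FDR between 0.01 and 0.05, 67 between 0.001 and 0.01, and 21 under 0.001. Of the 27 genes open in replicate 2 only, 14 had none in replicate 1, and 3, 7 and 3 fell in the same ranges in that order. Most calls in a single library therefore had no interval at all in the other, rather than one that missed the limit narrowly. Intervals were still more frequent there than at the 5449 CpG-poor genes open in neither library. In replicate 2, 27.95% of the genes open in replicate 1 only had one, against 2.24% of those open in neither. In replicate 1, 48.15% of the genes open in replicate 2 only had one, against 8.92% of those open in neither.

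Peaks at these genes mostly lay beside the TSS. The tallest peak of the gene covered a TSS in 26.2% of the open genes in replicate 1 and 24.9% in replicate 2, against 72.5% and 66.8% at the other protein-coding genes, which have more TSSs (a median of 5 at those open in both). Of the 186 genes open in both, 46 had a peak over a TSS in both libraries and 100 had none over a TSS in either. A peak beside the TSS can have another CpG content than the TSS itself. The median CpG ratio of the tallest peak was 0.248 in replicate 1 and 0.324 in replicate 2, and it was 0.35 or more in both libraries at 68 of the 186 genes and under it in both at 80. The tallest peaks of the other protein-coding genes had median ratios of 0.833 and 0.819.

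**Figure D2:**
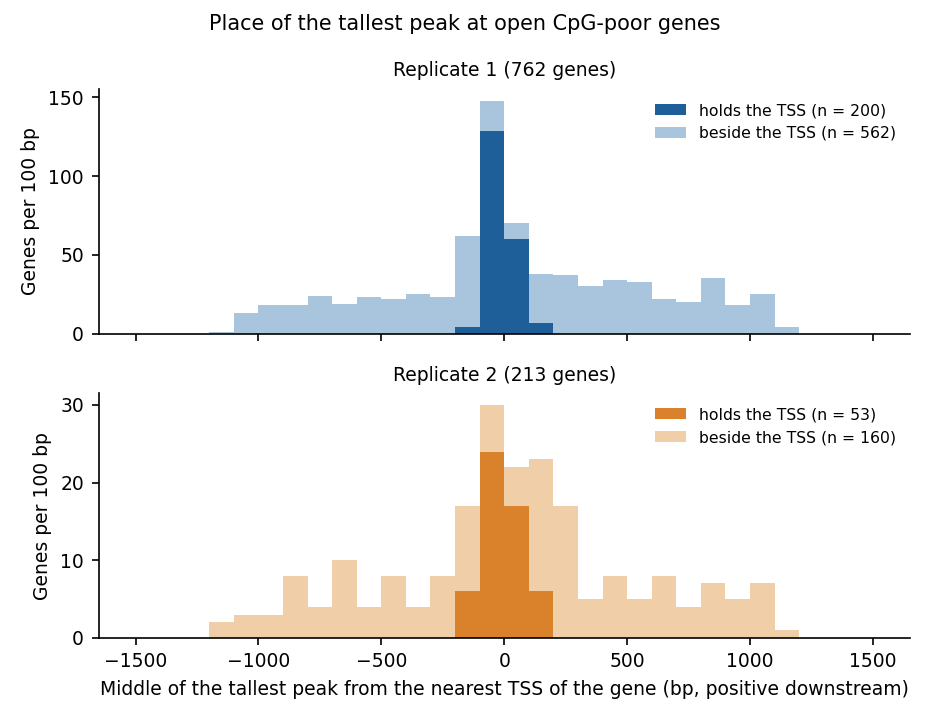
Distance from the nearest TSS of the gene to the middle of its tallest peak (x axis, bp, positive downstream) against the number of open CpG-poor genes per 100 bp (y axis), for replicate 1 (top, 762 genes) and replicate 2 (bottom, 213 genes). Dark bars are peaks that hold the TSS, 200 genes in replicate 1 and 53 in replicate 2; light bars spread to the limit of 1 kb on either side.

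Peak height is a signal that the authors normalized to read depth. In replicate 1 the median height of the tallest peak was 1.38 at open CpG-poor genes and 6.76 at the other protein-coding genes, and in replicate 2 it was 1.39 and 2.04. The gap between the classes was thus larger in replicate 1. A footprint lay in the tallest peak at 96.7% of the open CpG-poor genes of replicate 1 and 89.2% of those of replicate 2, against 99.5% and 96.6% at the other genes.

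At the 186 genes open in both, heights ran from 0.269 through a median of 2.42 to 33.6 in replicate 1 and from 0.386 through 1.45 to 7.13 in replicate 2, and 127 genes had the taller peak in replicate 1. Heights of the libraries had a Spearman correlation of 0.58 across these genes, a description of genes that share their libraries and not of replicates. A peak of replicate 1 overlapped one of replicate 2 at 169 of the genes. At 151 of the genes, at least 1 peak in each library lay within 1 kb of a TSS of no other annotated gene, coding or not. That peak was not always the tallest.

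**Figure D3:**
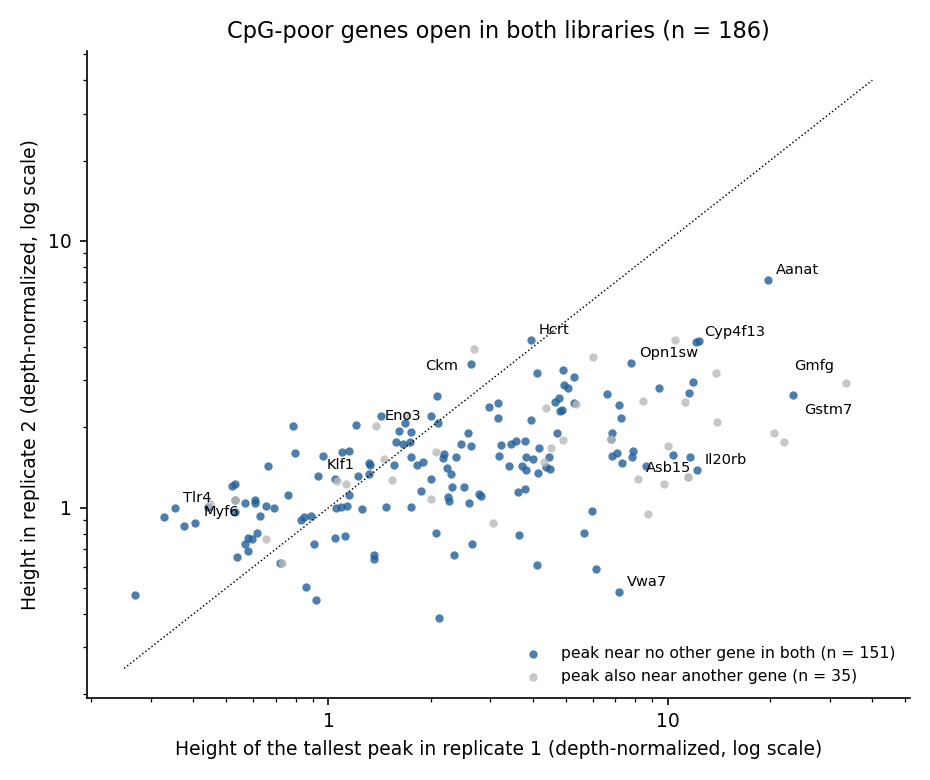
Height of the tallest peak at each of the 186 CpG-poor genes open in both libraries. Replicate 1 is on the x axis and replicate 2 on the y axis (depth-normalized signal, both log scales). Blue points are genes with a peak near no other gene in each library, not always the tallest. The dotted line marks equal heights. Aanat stands at the upper right with 19.7 and 7.13, and Ckm lies above the line with 2.63 and 3.46.

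Some of the tallest peaks lay at neighbours with a CpG-rich promoter. Gmfg, a regulator of actin branching in blood cells and chosen after its values were seen, had the tallest peak in replicate 1 (33.6, and 2.94 in replicate 2), a peak that also lay within 1 kb of a TSS of Samd4b. The genes with peaks of their own are therefore described first, in the order of their combined height ranks.

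Among the 20 leading genes with a peak of their own, Aanat had heights of 19.7 in replicate 1 and 7.13 in replicate 2, a peak exceeded by 0.743% of all peaks of replicate 1 and 0.228% of those of replicate 2. The peak had the same borders in both libraries, held no CpG and lay about 1 kb before the TSS. Gstm7 had heights of 23.4 and 2.65, and its peaks covered the TSS in both. H2-D1, the heavy chain of a class I histocompatibility antigen, had 12.3 and 4.20 at a peak downstream of the TSS.

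Cyp4f13 had 12.1 and 4.18, over the TSS in both libraries. Opn1sw, the short-wavelength cone opsin of the retina, had 7.76 and 3.48. Hsd3b7, an enzyme of bile acid synthesis, had 6.62 and 2.67. These 3 genes were taller in replicate 1, as were 19 of the 20 genes that lead by height rank. The median height at the other protein-coding genes was also higher in replicate 1, at 6.76 against 2.04. Hcrt, the precursor of the orexin neuropeptides, was the exception among the 20 with 3.94 and 4.26.

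Il6 had heights of 7.15 and 2.43 at a peak over the TSS. Tnfaip8l2, a brake on immune receptor signalling, had 5.08 and 2.80. Il20rb, a receptor chain for cytokines of the interleukin 20 group, had 12.1 and 1.38, the lowest value in replicate 2 among the 20 leading genes. Upk2 had 5.30 and 2.47, and Muc1 had 4.77 and 2.57, both away from the TSS. Another 7 of the 20 were Tmem270, Sft2d3, BC029722, Ttc24, Actl10, Acoxl and Dglucy, with heights of 5.30 to 11.6 in replicate 1 and 1.54 to 3.10 in replicate 2. H2-D1, Gstm7 and Cyp4f13 have close paralogs, and how reads that fit several places were treated is not given in the sources used here.

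CpG-poor genes of muscle were open in part. No gene of the muscle lists below that was open in both libraries had a peak over a TSS in either. The same held for 100 of the 186 genes open in both over the whole class. Each list below is a small group of chosen genes, to be read beside the whole class, of which 12.6% were open in at least 1 library, 2.98% in both, 9.23% in replicate 1 only and 0.433% in replicate 2 only. Of 22 CpG-poor genes in the sarcomere list, 2 were open in both libraries, 5 in replicate 1 only, 1 in replicate 2 only and 14 in neither, so that 36.4% were open in at least 1. Open in both were Ankrd2, a stretch-responsive protein of the I-band (4.02 and 1.52), and Mybpc2, the myosin-binding protein C of fast fibres (2.37 and 1.54). Xirp1, an actin-binding protein of muscle attachment sites, had 5.52 in replicate 1 and no interval in replicate 2. Tcap, the titin cap of the Z-disc, had 1.01 in replicate 1.

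Acta1, the main actin of skeletal muscle, had its peak in replicate 2 only, of height 1.22 and over the TSS; in replicate 1 its lowest FDR was 0.00451, beyond the limit of 0.001 but under 0.05. Tnni2, fast troponin I, had 0.650 in replicate 1 and a lowest FDR of 0.00109 in replicate 2, next to the limit. Tnnt3, fast troponin T, and Myh1, the type IIx myosin heavy chain, were open in neither and had no interval of FDR 0.05 or less in either library. Tnnc2, fast troponin C, was open in neither and had a lowest FDR of 0.00289 in replicate 1. Thus of the 7 CpG-poor troponin genes 1 was open, in a single library.

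Of 13 CpG-poor genes of muscle energy metabolism, 2 were open in both, Ckm, the muscle creatine kinase, and Eno3, the muscle enolase, and 1, Gpd1, in replicate 1 only, together 23.1%. Ckm had 2.63 and 3.46 and Eno3 1.38 and 2.03, both taller in replicate 2. The peak of Ckm lay 725 to 884 bp downstream of its TSS and held a CTCF match inside a footprint. The peak of Eno3 lay upstream of its TSS and also within 1 kb of a TSS of Gm12319, a gene that is not CpG-poor. Pgam2, the muscle phosphoglycerate mutase, was open in neither, with lowest FDRs of 0.00937 and 0.0199.

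Of 10 CpG-poor genes of muscle development, 2 were open in both, 2 in replicate 1 only and 6 in neither, so that 40% were open in at least 1. Cdh15, M-cadherin of satellite cells and myoblasts, had 3.19 and 1.57, and Myf6, the myogenic factor MRF4, had 0.406 and 0.879. Mymk, the membrane protein that drives myoblast fusion, had 2.20 in replicate 1, and Actc1, cardiac alpha-actin, which developing skeletal muscle also uses, had 0.979 there with a lowest FDR of 0.000969 in replicate 2. Myh3, the embryonic myosin heavy chain, was open in neither.

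Of 12 CpG-poor genes of calcium handling and excitation, 1 was open: Kcna7, a voltage-gated potassium channel, in both (1.68 and 2.07), a share of 8.33% against 12.6% over the class. Atp2a1, the calcium pump of fast fibres, and Casq1, the fast calsequestrin, were open in neither, and Casq1 had a lowest FDR of 0.00511 in replicate 2. Of 14 genes of muscle signalling and protein turnover, 1 was open in both, Asb15, of the ankyrin repeat and SOCS box family (8.14 and 1.29, at a peak also near a TSS of Ndufa5), 6 in replicate 1 only, 1 in replicate 2 only and 6 in neither, so that 57.1% were open in at least 1. Hspb7, a small heat shock protein of muscle, had 2.18, and Apobec2, a muscle member of the deaminase family, had 1.98, both in replicate 1. Of 5 neuromuscular junction genes, Colq, which anchors acetylcholinesterase, was open in replicate 1 (2.06) and Rapsn, which clusters acetylcholine receptors, in replicate 2 (1.05), while Chrna1 and Chrnd, receptor subunits, were open in neither.

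**Figure D4:**
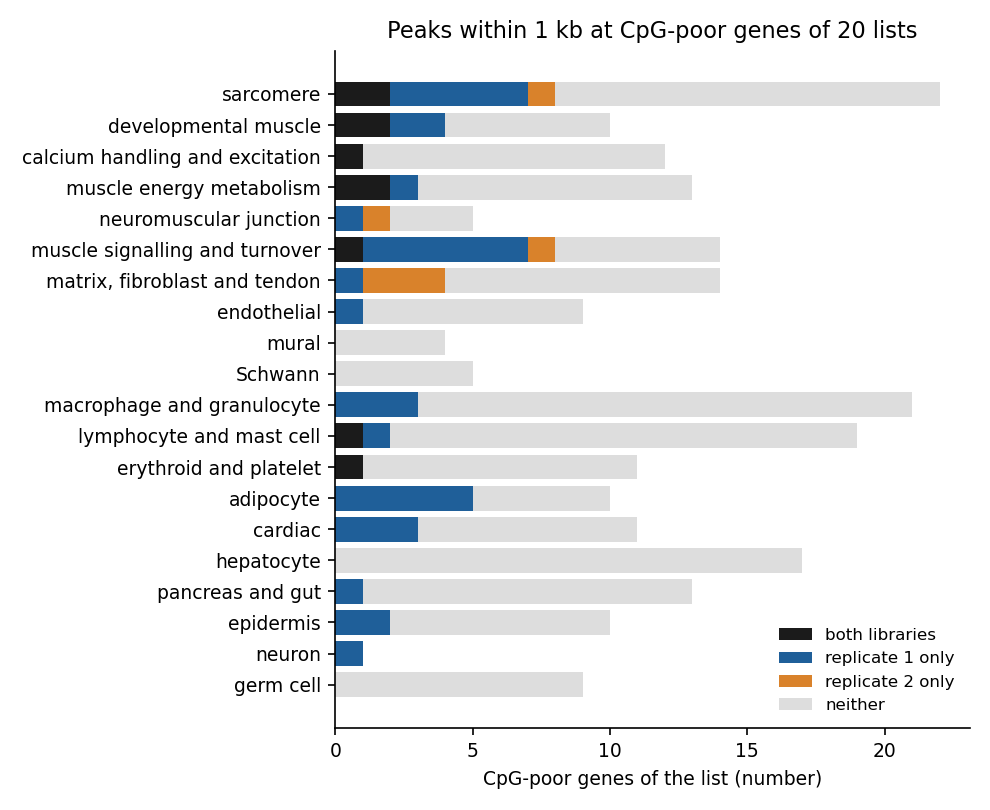
Number of CpG-poor genes (x axis) in each of 20 gene lists (y axis) that were open in both libraries, in 1 of them or in neither. The sarcomere list has 22 such genes with 8 open in at least 1 library, and the hepatocyte list has 17 with 0 open.

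Genes of other cells of the tissue lay on both sides of the class share of 12.6% open in at least 1 library. Of the 14 CpG-poor genes of matrix, fibroblasts and tendon, 0 were open in both, 1 in replicate 1 only (Clec3b, tetranectin, 0.996) and 3 in replicate 2 only: Col3a1, type III collagen (1.54), Dpt, dermatopontin (1.14), and Col6a1, type VI collagen (1.06), together 28.6%. The peak of Col3a1 also lay within 1 kb of a TSS of another annotated gene. Dcn, the proteoglycan decorin, and Tnmd, tenomodulin, were open in neither. Of 9 endothelial genes, Aqp1, a water channel, was open in replicate 1 only (1.16), a share of 11.1%, and Pecam1 and Cdh5, adhesion molecules of vessel walls, Tie1 and Emcn in neither.

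Of 4 mural genes and 5 Schwann cell genes, among them Sox10, 0 were open. Of 21 genes of macrophages and granulocytes, 3 were open in replicate 1 only, C1qc, a complement subunit (2.30), Mpo, myeloperoxidase (0.943), and Cd163, a scavenger receptor (0.477), together 14.3%. Csf1r, Cd68 and Lyz2 were open in neither. Of 19 lymphocyte and mast cell genes, Cd2, a T cell adhesion molecule, was open in both (1.21 and 2.05) and Prf1, perforin, in replicate 1 only (1.24). Of 11 erythroid and platelet genes, Klf1, the erythroid Krüppel-like factor, was open in both (0.931 and 1.32). Its peaks in the libraries did not overlap, and none lay over a TSS. The globin genes Hbb-bs and Hba-a1 and the haem synthesis gene Alas2 were open in neither. Of 10 adipocyte genes 5 were open (50%), all in replicate 1 only, where 9.23% of the class were. Fabp4 was open in neither, and the 5 included Thrsp, a lipogenic nuclear protein (5.97), Plin4, a lipid droplet coat protein (1.91), Plin1 (1.41) and Adipoq, adiponectin (0.513).

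Lists of tissues other than muscle are given for comparison. Of 17 CpG-poor hepatocyte genes 0 were open, and of 9 germ cell genes 0. Of 13 genes of pancreas and gut 1 was open, Muc2, an intestinal mucin (1.86 in replicate 1), and of 10 epidermal genes 2, Sfn and Krt77, both in replicate 1 only. Of 11 cardiac genes 3 were open, all in replicate 1 only, Mybpc3, the cardiac myosin-binding protein C (7.87), and Actc1 and Myl3, which also stand in the muscle lists.

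The tissue label was checked against marker genes of any CpG content. Of 20 markers of skeletal muscle fibres, 10 were open in replicate 1 and 6 in replicate 2. These shares lie below those of all protein-coding genes, 66.7% and 51.4%, so the count does not set the muscle label apart. Of 5 fibroblast and tendon markers 3 were open in each library, of 4 Schwann cell markers 3 in replicate 1 and 2 in replicate 2, of 5 endothelial and of 4 erythroid markers 1 each in each library, of 3 adipocyte markers 2 in replicate 1 and 0 in replicate 2, and of 5 macrophage markers 0. Des, the muscle intermediate filament, and Myh4, the type IIb myosin heavy chain, were open in neither. All 142 CpG-poor genes on chromosome Y were closed in both libraries, beside 87.4% of the whole class. Most CpG-poor genes were closed anyway, so this count is no check of the sex, which the labels give as female.

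Among the 10 genes open in replicate 1 only with the tallest peaks of their own were Clstn3, a calsyntenin of synapses (12.9), Fabp7, the brain fatty acid-binding protein of glia (8.41), Adgrg1, an adhesion receptor with roles in brain and other tissues (10.1), and Amer2, a regulator of Wnt signalling (12.1). The others were 9630041A04Rik (13.8), Btbd17 (11.6), Gpr62, an orphan receptor (8.19), Sapcd1 (8.05), Mybpc3 (7.87) and Plat, tissue plasminogen activator (7.54). The median height over all 576 genes was 1.24.

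The only CpG-poor gene of the neuron list, Neurod6, a transcription factor of cortical neurons, was open in replicate 1 only (3.97) and had no interval in replicate 2. Of all 25 genes of that list, whatever their CpG content, 18 were open in replicate 1 only, 4 in both, 0 in replicate 2 only and 3 in neither. Over all protein-coding genes 15.7% were open in replicate 1 only and 51% in both. The part of neural chromatin in the 576 genes was not tested.

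The 27 genes open in replicate 2 only had low peaks, with a median height of 0.868 against 1.45 at the genes open in both in that library. The tallest with a peak of their own were Acy3, an aminoacylase (1.61), Emilin1, a glycoprotein of elastic fibres (1.42), Acta1 (1.22), Frk, a tyrosine kinase (1.18), Mvp, the major vault protein (1.16), Dpt (1.14), Klhl31, a muscle protein of the Kelch family (1.07), Col6a1 (1.06), Rapsn (1.05) and Stmnd1 (0.997). In replicate 1 Klhl31, Dpt and Col6a1 had no interval of FDR 0.05 or less within 1 kb, whereas Col3a1 had a lowest FDR of 0.00123 and Rapsn of 0.000758.

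Large families of CpG-poor genes were closed almost throughout. Of 1472 CpG-poor chemosensory receptor genes 1 was open in both libraries and 31 in replicate 1 only. The gene open in both was Tas1r1, a subunit of the umami taste receptor, whose peak also lay near a TSS of Nol9. Of the 31 genes, 28 were among the 1094 olfactory receptors. Without the chemosensory receptors, 185 of 4766 CpG-poor genes (3.88%) were open in both. The 25 kallikreins, 22 major urinary proteins and 17 type I interferons had 0 open genes.

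Other families are set beside the 2.98% of the class that were open in both and the 12.6% open in at least 1 library, without a test. Of 75 cytochrome P450 genes 5 were open in both (Cyp2j6, Cyp2j9, Cyp4f13, Cyp4f16 and Cyp4f37) and 10 in replicate 1 only, 20% in at least 1. Of 28 interleukin genes 3 were open in both (Il6, Il12b and Il34) and 7 in replicate 1 only, 35.7% in at least 1. Of 8 S100 genes, which encode small calcium-binding proteins, 2 were open in both (S100a4 and S100a16) and 2 in replicate 1 only. Of 7 genes of the ankyrin repeat and SOCS box family 2 were open in both (Asb10 and Asb15). Of 51 keratin-associated protein genes 11 were open (21.6%), all in replicate 1 only.

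Matches to sequence motifs were counted on both strands, as a description of letters and not of binding. The CTCF consensus, added to the motif list after the data were seen, matched in 8.10% of the tallest peaks at CpG-poor genes in replicate 1 and 11.4% in replicate 2. At the other protein-coding genes it matched in 2.30% and 2.07%, and in peaks over 1 kb from every protein-coding TSS in 7.60% and 16.8%. Peaks differ in width between these groups; in the central 120 bp of peaks at least that wide the shares were 7.67% and 9.68% at CpG-poor genes, 1.67% and 1.14% at the other genes, and 7.97% and 17.3% away from TSSs. The share at CpG-poor genes was above that at other promoters in both libraries, with or without the fixed width. It was 6.57% and 7.55% where the tallest peak covered the TSS and 8.65% and 12.7% where it lay beside it.

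Among the genes open in both, the CTCF consensus matched in 13.1% of the tallest peaks in replicate 1 and 12.6% in replicate 2, and 22 of the 186 genes had a match in both libraries. They included Aanat, Muc1 and Upk2, whose sequences are shown above, and Ckm, Ankrd2, Hsd3b7, Irf9, an interferon-responsive transcription factor, and Myo18b, an unconventional myosin of muscle. A CTCF match lay wholly inside a footprint at 53 of 61 genes in replicate 1 and 15 of 24 in replicate 2. For the CAGCTG E-box, which myogenic factors can bind, this was so at 44 of 187 genes and 7 of 43, and for TATAAA at 2 of 28 and 1 of 12. Footprints covered a median of 24% of the tallest peak at open CpG-poor genes in replicate 1 and 13.5% in replicate 2. The footprint counts cover CpG-poor genes only, so they do not set these peaks apart from other peaks. Matches to the general E-box CANNTG overlap the CTCF match in Upk2.

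**Figure D5:**
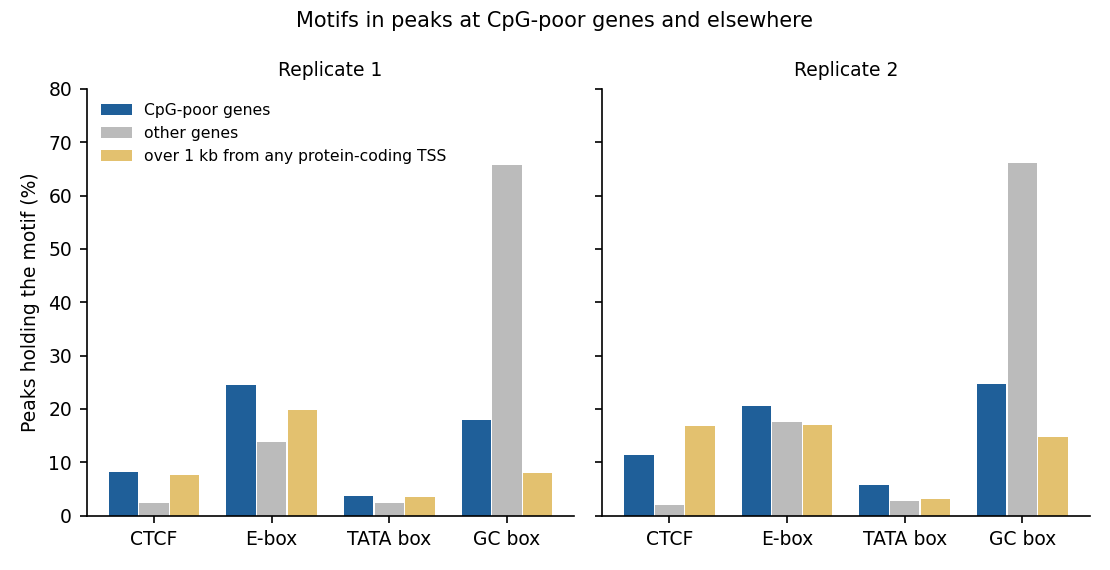
Percentage of peaks that hold a match (y axis) to the CTCF consensus, the CAGCTG E-box, TATAAA and the GC box GGGCGG, in replicate 1 (left) and replicate 2 (right), for the tallest peak at CpG-poor genes, the tallest peak at other protein-coding genes, and peaks over 1 kb from every protein-coding TSS. CTCF stands at 8.10% and 11.4% at CpG-poor genes and at 2.30% and 2.07% at other genes, and the GC box at 17.9% and 24.8% against 65.7% and 66.1%.

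The GC box GGGCGG, bound by Sp1-type factors and itself holding a CpG, matched in 17.9% and 24.8% of the tallest peaks at CpG-poor genes and in 65.7% and 66.1% at the other protein-coding genes. On the strand of the gene the letters TATAA lay 40 to 20 bp before the 5′-most TSS in 5.38% of the CpG-poor genes open in both, 7.47% of those open in replicate 1 only, 7.41% of those open in replicate 2 only and 9.40% of those open in neither, against 1.98% of the other protein-coding genes. The share was thus lower in each group of open CpG-poor genes than in the closed group. The counts are small, at 10 of 186 genes open in both and 2 of 27 open in replicate 2 only. In the window from 250 bp before to 50 bp after the 5′-most TSS, a MEF2 match lay at 2.69% of the genes open in both. It lay at 5.49% of the CpG-poor genes open in neither and 2.85% of all protein-coding genes. From 100 bp before to 20 bp after, the order changed, with 2.69%, 1.85% and 0.90%. The genes open in both with a match were 5 of 186 in either window. A CAGCTG E-box lay at 22.6%, 16.1% and 15.7% of the same groups in the longer window and at 10.8%, 7.29% and 6.56% in the shorter.

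Distal peaks lay near a larger share of the open than of the closed CpG-poor genes. At least 1 distal peak of replicate 1 that overlapped one of replicate 2, farther than 1 kb from every protein-coding TSS but at most 50 kb from one of the gene, lay near 49.5% of the genes open in both, 34.5% of those open in replicate 1 only, 44.4% of those open in replicate 2 only and 18.9% of those open in neither. At the other protein-coding genes the shares were 43.5% for those open in both and 37.1% for those open in neither. Neighbouring genes share distal peaks, so these genes are not independent of each other.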

How the data were processed

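DNase-seq peaks, FDR intervals and footprints of 2 libraries, all on mm10, were used as deposited. Per the labels, mm10 is the assembly; aligner, callers and settings were not given in the sources used here. Peak height in the deposited lists is a signal, normalized to read depth by the authors; read totals are not used here. The deposited FDR is a p-value corrected by the authors. The deposited footprint score is 0.01 throughout and ranks nothing. Of the 2 deposited peak lists per library the one with fewer rows was taken; each of its peaks holds a base with an FDR under 0.001.

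TSSs came from GENCODE M21 (all transcripts, chromosome M left out) and sequence from GRCm38. The CpG ratio is the number of CpGs times the window length over the product of the C and G counts. For each gene the tallest peak within 1 kb represents it. Of 458 entries in 20 gene lists, 3 were not found. Members, lists, motifs and alternatives were chosen with earlier results of these data known. Named genes are the 20 open in both by overlapping peaks of their own with the best sum of height ranks, the 10 tallest of each library alone, up to 4, 2 and 2 per list open in both, 1 or no library, and all cell type markers that are CpG-poor. Of the first 20, 1 gene is not reported here; list members open in neither library are not all named. No test was run, because 1 group of 2 libraries has no contrast. The work used pandas 2.3.3 and numpy 2.4.6 in Python 3.11.15, with matplotlib 3.10.9 for plots; pairing of peaks and TSSs differed from bedtools 2.31.1 in 0 of 6199 pairs on chromosome 19.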

Additional observations from a re-analysis of the deposited data

How the results depend on the processing

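No paired analysis was possible because there is 1 group only. The count of genes open in both was 186. With the longer peak lists 376 were open in both, and 82 genes were open in replicate 2 only. With a peak required over the TSS, 46 were open in both, 208 in replicate 1 only and 17 in replicate 2 only. With a CpG limit of 0.25 these counts were 73, 300 and 15, and with 0.45 they were 390, 914 and 43. At an equal number of peaks they were 85, 120 and 128, so that the excess of replicate 1 did not hold. From 1 library alone the count ranged from 213 to 762. A distance of 500 bp, the midpoint of the peak, a CpG window of 1000 bp, protein-coding transcripts alone and peaks near no other gene left all 4 counts within 1.5 times their value. Of 120 named genes, 36 gained a library with the longer lists, 53 lost at least 1 when the peak had to cover the TSS, and 26 did so at an equal number of peaks. Motif shares in the shorter promoter window were lower for all 18 motifs, but that window lies inside the longer one, so no share could rise. For MEF2 the order of the groups changed, as given above. Heights carry no replicate error, and the depth behind a missing peak is unknown.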

Other observations

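The 46 CpG-poor genes with a peak over a TSS in both libraries include the following, named after their values were seen. Tlr4, the receptor for bacterial lipopolysaccharide, had heights of 0.352 in replicate 1 and 0.997 in replicate 2. Hgf, the hepatocyte growth factor, which activates muscle satellite cells, had 0.722 and 0.622. Nqo1, a quinone reductase of the oxidative stress response, had 1.09 and 1.01. Lgals1, a galactose-binding lectin found in muscle and connective tissue, had 4.12 and 3.18, with the tallest peak over the TSS in replicate 2 and upstream of it in replicate 1. H2-Ab1, a class II histocompatibility chain, Irf9, Adamts5, an aggrecan-cleaving protease, and Hspb2, a small heat shock protein of muscle, were also among them. The peaks of Hspb2 also lay within 1 kb of a TSS of another annotated gene in both libraries.

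Some peaks at genes open in both differed widely in height between the libraries. Vwa7, also chosen after its values were seen, had 7.17 in replicate 1 and 0.482 in replicate 2 at overlapping peaks over the TSS.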
